A study of Mus musculus with 4 samples.

Results

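The 37 genes described here encode the enzymes that break down fatty acids in mitochondria, the enzymes that build fatty acids and cholesterol, and the regulators of that synthesis. They were taken by symbol from the deposited table of gene counts, which lists 14934 genes. All 37 are in the table and all 37 passed the filter on low counts that left 11563 genes for testing. The oxidation arm holds 15 of them (the carnitine shuttle, the beta oxidation enzymes and the electron transfer flavoprotein) and the synthesis arm 19 (fatty acid synthesis, sterol synthesis and the regulators of the SREBP system). Acsl1, Acsl5 and Acot7, which attach or remove coenzyme A and serve both directions, were placed in neither arm. The libraries came from CD8 T cells that had infiltrated hepatocellular carcinoma in wild-type mice and were sorted by flow cytometry for surface JAML, an adhesion receptor of the immunoglobulin superfamily. There were 2 JAML-positive libraries (replicates A and B) and 2 JAML-negative libraries (replicates A and B). The titles of the JAML-negative libraries begin with CON, and their description reads JAML-CD8T. The labels give no tumour model, age, sex or strain. They also leave unsaid if replicates A and B came from different mice, so the p-values reflect only library-to-library spread, and that spread may be technical.

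Long-chain fatty acids enter mitochondria as carnitine esters, are shortened in repeated cycles of dehydrogenation, hydration, dehydrogenation and thiolysis, and pass their electrons through the electron transfer flavoprotein to the respiratory chain. Cells that grow instead export citrate, cleave it to acetyl-CoA and build fatty acids and, through the mevalonate pathway, cholesterol. Transcription factors of the SREBP family switch on the synthesis genes when membrane sterol is low, and INSIG proteins hold them back when it is high. In CD8 T cells, fatty acid oxidation is known for its place in memory cells, and lipid synthesis for its place in dividing effector cells.

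Library totals ran from 27530187 to 30569728 counts, and the members took 0.244% to 0.261% of them in every library. Values are given as CPM, counts scaled to library size with TMM factors, and 3 counts in a library correspond to 0.0957 to 0.113 CPM. Reads carry no molecular identifiers, so such limits cover counting error only. Jaml itself had 137 and 146 CPM in the JAML-positive libraries, against 130 and 116 CPM in the JAML-negative libraries. Both JAML-positive values lay above both JAML-negative ones, but its messenger RNA did not pass the test (log2 fold change 0.20, SE 0.26, edgeR adjusted p = 0.881), and the group names rest on the labels. The 7 T cell markers in the table summed to 3869 to 4416 CPM in JAML-positive and 4004 to 4037 CPM in JAML-negative libraries, and Cd8a, which defines the sorted cells, had 1042 and 1049 CPM in JAML-positive and 1022 and 1111 CPM in JAML-negative libraries. JAML-positive replicate A stood apart, with 11.2% of its counts in ribosomal protein genes, against 6.87% to 7.67% in the other libraries. Across all genes, short transcripts had higher fold changes than long ones, with a median log2 fold change of 0.22 for 2380 genes under 2000 nucleotides and -0.21 for 605 genes of 8000 or more. The longest transcript of a member had a median of 2168 nucleotides in the oxidation arm and 3931 in the synthesis arm.

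Markers of other cell types were counted in the same libraries. Of 9 markers of dendritic cells and MHC class II in the table, the summed level was 253 to 430 CPM in JAML-positive and 62.1 to 70.4 CPM in JAML-negative libraries. Cd74, H2-Aa, H2-Ab1, H2-Eb1 and Siglech made up most of the JAML-positive sum. In all, 6 markers lay higher in JAML-positive libraries without overlap, and Ciita, Xcr1 and Batf3 overlapped. For 9 macrophage markers the summed level was 162 to 208 CPM in JAML-positive and 75.8 to 79.6 CPM in JAML-negative libraries. Mpeg1 made up most of that gap, at 119 and 89.4 CPM in JAML-positive and 7.49 and 13.8 CPM in JAML-negative libraries. Mpeg1, C1qb and Clec4f lay higher in JAML-positive libraries without overlap, Adgre1 lay lower, and the other 5 overlapped. The 6 B and plasma cell markers summed to 84.7 to 126 CPM in JAML-positive and 10.4 to 18.01 CPM in JAML-negative libraries. Jchain made up most of the JAML-positive sum, at 98.3 and 50.9 CPM, against 4.56 and 0.326 CPM in JAML-negative libraries. Mzb1 was at 0 in both JAML-negative libraries. Jchain, Mzb1 and Ms4a1 lay higher in JAML-positive libraries without overlap, and the other 3, Cd79b among them, overlapped. The 5 CD4 and regulatory T cell markers summed to 257 to 313 CPM in JAML-positive against 153 to 187 CPM in JAML-negative libraries. Cd4 and Il2ra made up most of each sum. Ccr8 was at 0 in both JAML-negative libraries. Foxp3 had 267 and 0 counts in JAML-positive and 30 and 128 counts in JAML-negative libraries, which overlap. The other 4 lay higher in JAML-positive libraries without overlap. The 15 cell cycle genes summed to 3093 to 3323 CPM in JAML-positive against 2072 to 2161 CPM in JAML-negative libraries. The 10 hepatocyte markers come from a cell rich in the enzymes described here. They summed to 33.4 to 41.8 CPM in JAML-positive and 32.5 to 70.7 CPM in JAML-negative libraries. Apoa1, Apoa2, Ttr, Ahsg and Hnf4a were at 0 in both JAML-positive libraries. Of these, Apoa1, Apoa2 and Ahsg had 134, 214 and 136 counts in JAML-negative A and 0 in JAML-negative B. Ttr and Hnf4a each had 1 count in 1 JAML-negative library and 0 in the other. Cyp2e1 was at 0 in both JAML-negative libraries, with 1 and 88 counts in JAML-positive ones. Afp had 3.55 and 7.14 CPM in JAML-positive and 21.7 and 23.2 CPM in JAML-negative libraries, while Trf lay higher in JAML-positive and Alb overlapped. The 3 erythroid markers summed to 15.8 to 49.5 CPM in JAML-positive against 0 to 0.036 CPM in JAML-negative libraries, with Hbb-bs and Hbb-bt at 0 in both JAML-negative libraries. For 7 endothelial and stellate cell markers the sum was 123 to 148 CPM in JAML-positive against 140 to 147 CPM in JAML-negative libraries. Pecam1 made up most of each sum, at 99.7 and 123 CPM in JAML-positive and 125 and 145 CPM in JAML-negative libraries. Clec4g had 4.26 and 6.51 CPM in JAML-positive and 0.530 and 0.290 CPM in JAML-negative libraries. Pecam1 lay lower and Clec4g higher in JAML-positive libraries without overlap, and the other 5 overlapped. For 2 neutrophil markers the sum was 0.032 to 0.189 CPM in JAML-positive against 0.109 to 0.565 CPM in JAML-negative libraries. S100a8 was at 0 in both JAML-positive libraries and had 1 and 0 counts in JAML-negative ones. The part of these cells in the results on the members was not tested. In these bulk samples, fewer cells expressing a gene and less RNA per cell cannot be told apart.

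No member passed edgeR's quasi-likelihood test after Benjamini-Hochberg adjustment over all 11563 genes, and 0 genes passed in all. In this test 0% of genes were called higher and 0% lower. Adjusted p for the members ran from 0.609 to 0.999. At an unadjusted p under 0.05 there was 1 member, Eci1, which is 2.70% of the 37, against 7.65% of all genes tested (4.32% higher and 3.34% lower in JAML-positive cells). Fold changes were above 0 for 20 members and below 0 for 17, where 50.7% of all genes lay above 0. Both libraries of one group lay above both of the other for 15 members (40.5%), 7 of them higher and 8 lower in JAML-positive cells. Among all genes tested that share was 38.5% (20.3% with JAML-positive above and 18.2% with JAML-negative above), so separation of the groups was about as common among the members as elsewhere. A log2 fold change of at least 1 in size was fitted for 2 members, Eci1 and Scd1, and for 21.0% of all genes. By DESeq2 1 of the 37 members was called, again Eci1, where 3.95% of the 12328 genes with an adjusted p were called higher and 2.82% lower.

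**Figure D1:**
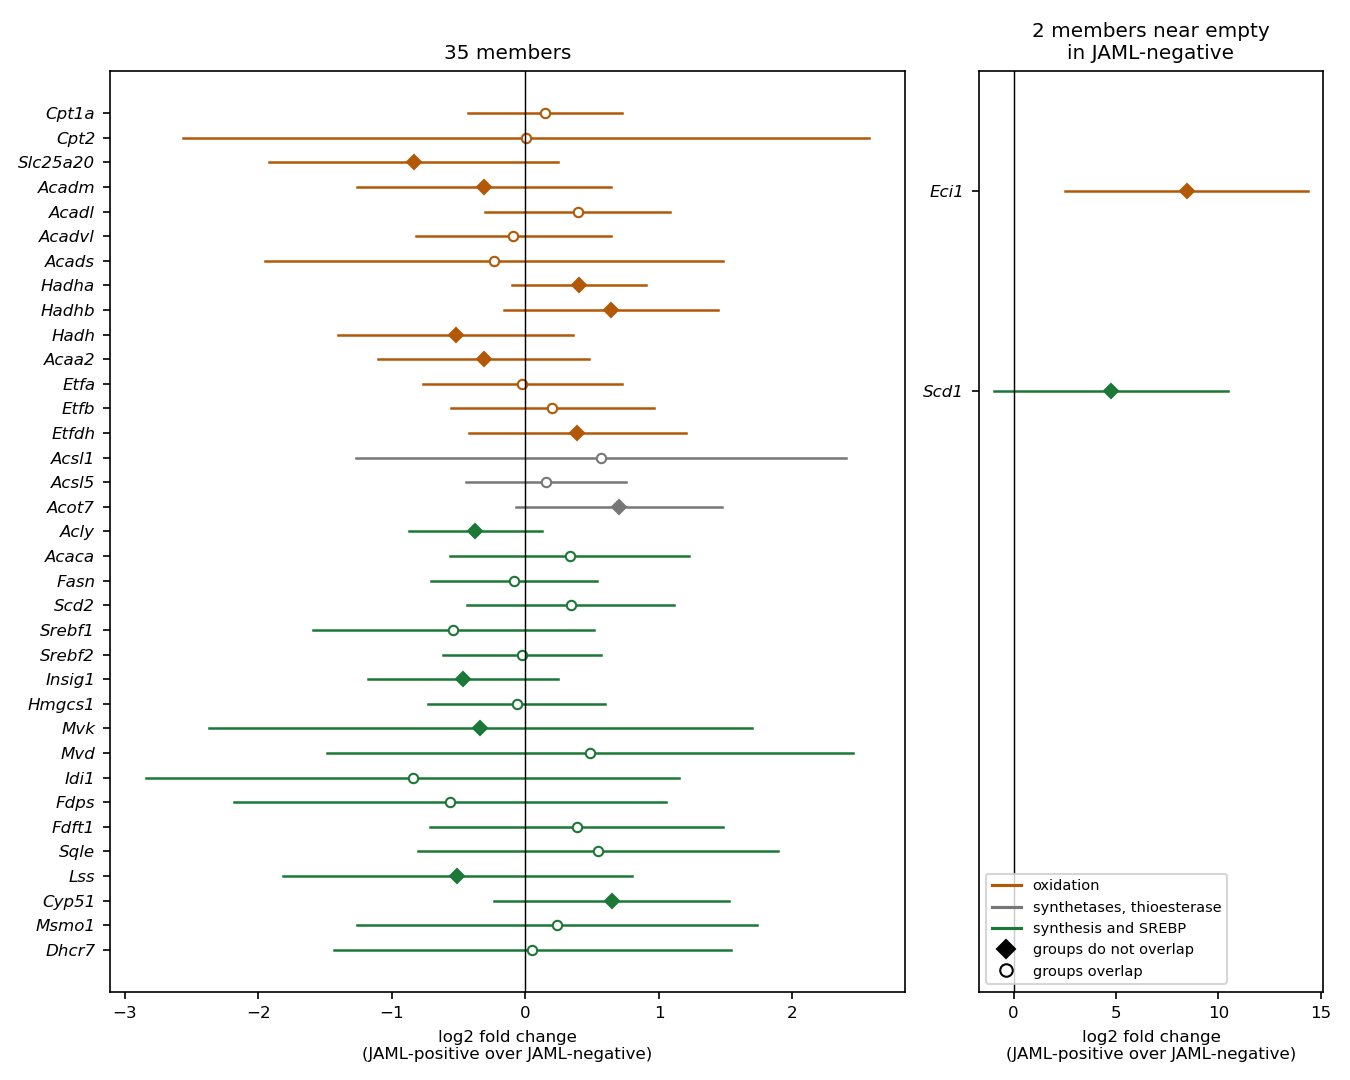
Log2 fold change (JAML-positive over JAML-negative, horizontal axis) of each of the 37 members with its 95% interval from edgeR, on separate scales for 35 members and for Eci1 and Scd1. Filled diamonds mark members whose groups do not overlap in CPM, and the intervals of 36 members include 0.

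The carnitine shuttle gave values on both sides. Cpt1a, the outer membrane enzyme that controls entry of long-chain acids, had 133 and 172 CPM in JAML-positive libraries, against 134 and 143 CPM in JAML-negative libraries. The groups overlapped, with a log2 fold change of 0.14 (SE 0.27, edgeR adjusted p = 0.919) and a 95% interval of 0.740 to 1.65-fold. Slc25a20, the carrier that brings acylcarnitine across the inner membrane, had 41.5 and 18.9 CPM in JAML-positive and 42.7 and 62.9 CPM in JAML-negative libraries. Both JAML-positive libraries lay below both JAML-negative ones, although JAML-positive A and JAML-negative A were almost level (-0.84, SE 0.50, adjusted p = 0.655 by edgeR). The value was -1.48 without JAML-positive A and -0.35 without JAML-positive B. Cpt2, which turns acylcarnitine back into acyl-CoA, was low and uneven, at 10.98 and 2.23 CPM in JAML-positive and 3.46 and 9.10 CPM in JAML-negative libraries. The JAML-positive libraries differed 4.92-fold and the JAML-negative ones 2.63-fold, and no difference between groups was detectable (log2 fold change 0.01, SE 1.18).

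The mitochondrial trifunctional protein, which carries out the last 3 steps on long chains, had both subunits on the same side. Hadha, its alpha subunit with hydratase and dehydrogenase activity, had 239 and 240 CPM in JAML-positive libraries, against 177 and 186 CPM in JAML-negative libraries. Its replicates were nearly equal, and the fold change on the log2 scale was 0.40 (SE 0.23, adjusted p = 0.642 by edgeR) with a 95% interval of 0.933 to 1.87-fold. Hadhb, the beta subunit with thiolase activity, had 89.5 and 68.6 CPM in JAML-positive libraries, against 44.0 and 57.0 CPM in JAML-negative libraries (0.64, SE 0.37, adjusted p = 0.641 by edgeR). For both subunits the JAML-positive libraries lay above the JAML-negative ones, and neither passed the test. These genes lie head to head on chromosome 5 (Hadha 30119423 to 30154980, Hadhb 30155253 to 30184593, GRCm38), with 272 bases between their starts. The 250 bases before the start of Hadhb (RefSeq, GRCm38.p6, chr5:30155003-30155252, plus strand) are shown because both genes are read outward from this stretch. Capitals mark the GC box GGGCGG, searched on both strands, which begins 90 and 25 bases before the start. It occurs in 23 of the 31 members with a promoter in the RefSeq table and in 32.74% of all 32851 promoters of that table, searched over the same length. Members were counted by gene and the background by promoter, over the whole RefSeq table and not the tested genes alone.
Hadhb: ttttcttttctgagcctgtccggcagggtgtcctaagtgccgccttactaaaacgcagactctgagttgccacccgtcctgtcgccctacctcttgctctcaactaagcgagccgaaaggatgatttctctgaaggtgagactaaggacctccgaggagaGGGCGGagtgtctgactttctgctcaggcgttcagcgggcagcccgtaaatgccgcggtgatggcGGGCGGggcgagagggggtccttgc

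The acyl-CoA dehydrogenases, which open each cycle for chains of a given length, did not move together. Acadl, for long chains, had 129 and 142 CPM in JAML-positive libraries, against 74.8 and 132 CPM in JAML-negative libraries. The JAML-negative replicates were further apart than the group means, and the groups overlapped (0.39, SE 0.32, edgeR adjusted p = 0.780). Acadvl, for very long chains, had 86.8 and 69.4 CPM in JAML-positive and 94.8 and 70.8 CPM in JAML-negative libraries, also overlapping. Of the exonic bases of Acadvl, 42.9% overlap Dvl2 on the opposite strand, and whether the counting used strand is not given in the sources used here. Acadm, for medium chains, had 37.5 and 38.2 CPM in JAML-positive and 38.5 and 55.6 CPM in JAML-negative libraries, a separation that rested on a gap of under 1 CPM between the nearest libraries. Acads, for short chains, had 23.4 and 5.93 CPM in JAML-positive and 15.3 and 17.9 CPM in JAML-negative libraries, overlapping.

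Hadh and Acaa2 were the other members of the later steps. Hadh, the hydroxyacyl-CoA dehydrogenase of shorter chains, had 39.4 and 41.2 CPM in JAML-positive libraries, against 50.2 and 65.9 CPM in JAML-negative libraries. JAML-positive libraries lay below JAML-negative ones without overlap (-0.52, SE 0.41, edgeR adjusted p = 0.769). Acaa2, a mitochondrial thiolase, had 62.0 and 48.6 CPM in JAML-positive and 66.6 and 70.1 CPM in JAML-negative libraries, again without overlap (-0.31, SE 0.36, adjusted p = 0.861 by edgeR). Some enzymes of the neighbouring list of fatty acid oxidation were chosen here after their values were seen. Echs1, Hsd17b10 and Acat1 had log2 fold changes of 0.42, 0.25 and 0.81, and Acaa1a and Decr1 had -0.0014 and -0.17. None of them passed. Acat1 lay higher in JAML-positive libraries without overlap, and the groups overlapped for the others. Whether these enzymes differ from each other in their fold change was not tested.

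Eci1 was the member with the largest separation. It encodes the enoyl-CoA isomerase that lets unsaturated fatty acids enter the cycle. Its counts were 348 and 461 in the JAML-positive libraries and 1 in each JAML-negative library, or 13.1 and 14.7 CPM in JAML-positive and 0.035 and 0.036 CPM in JAML-negative libraries. The ratio of summed counts, scaled by library size, was 391 with an exact 95% counting interval of 108 to 3233, which covers counting error only. The value fitted by edgeR was 8.44 on the log2 scale (SE 2.69, adjusted p = 0.609), a size that depends on the prior count. DESeq2 called it (adjusted p = 3.13e-07), while in the other 13 alternatives its adjusted p was 0.578 to 0.881. Eci1 passed the filter only through the JAML-positive libraries. At most 3 counts in both JAML-negative and at least 100 in both JAML-positive libraries were found for 126 of 14934 genes (0.844%). The reverse held for 51 genes (0.342%). Between replicates A and B of a group, at most 3 counts in 1 library and at least 100 in the other was commoner. That held for 1227 genes (8.22%) in JAML-positive and 1693 genes (11.3%) in JAML-negative cells, and for 0 of the 37 members. This pattern limits only the libraries of 1 group, in either order, while the pattern between groups limits every library. The looser condition is easier to meet, so these shares are not like for like. Eci2, a related isomerase, had 47.8 and 37.6 CPM in JAML-positive and 31.6 and 44.3 CPM in JAML-negative libraries, which overlap.

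The electron transfer flavoprotein showed little. Etfdh, the membrane oxidoreductase that hands its electrons to ubiquinone, had 72.4 and 58.4 CPM in JAML-positive libraries, against 51.3 and 48.1 CPM in JAML-negative libraries. The groups did not overlap (0.39, SE 0.37, edgeR adjusted p = 0.820). Etfa, the alpha subunit, had 63.7 and 72.5 CPM in JAML-positive and 74.6 and 64.2 CPM in JAML-negative libraries, with a log2 fold change of -0.02 and a 95% interval of 0.586 to 1.65-fold. Etfb, the beta subunit, had 109 and 66.3 CPM in JAML-positive and 76.2 and 75.0 CPM in JAML-negative libraries, and its log2 fold change of 0.20 was -0.18 without JAML-positive A, the library with the high ribosomal protein share, and 0.53 without JAML-positive B.

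**Figure D2:**
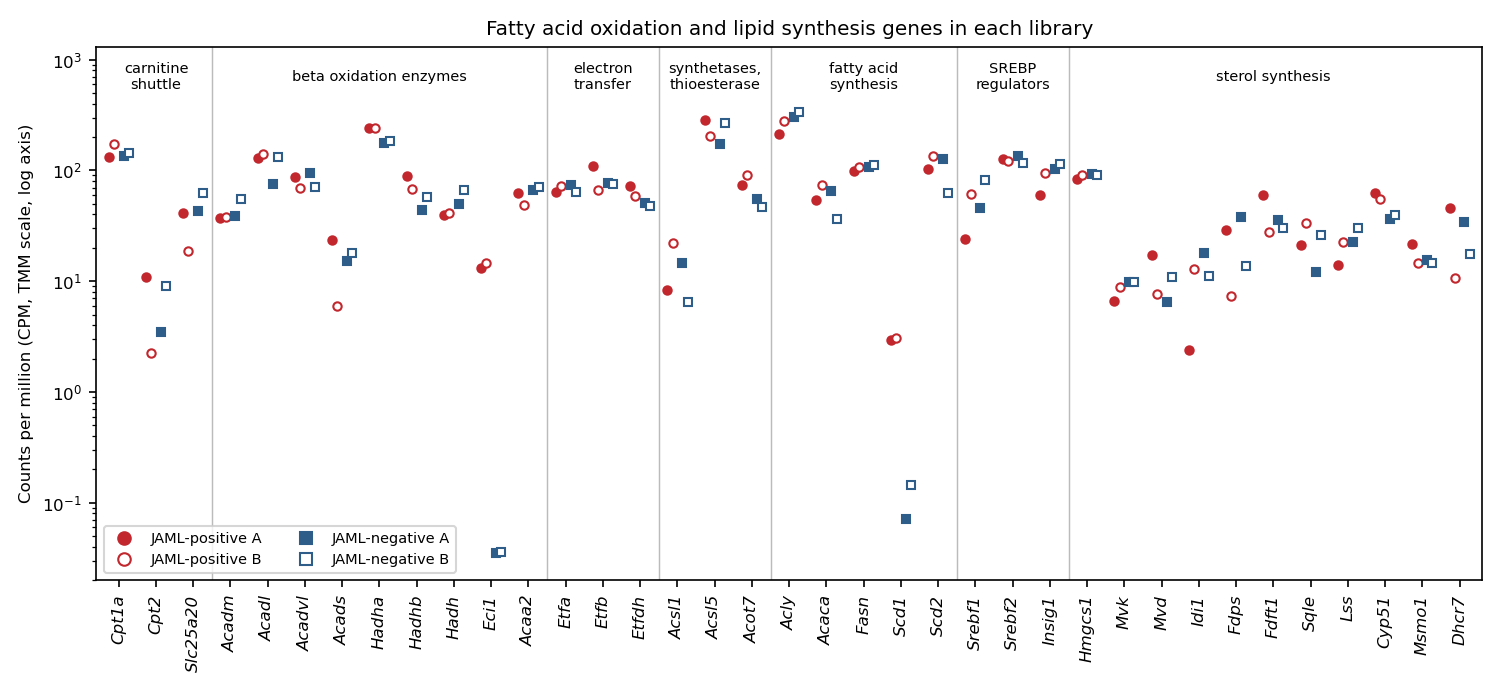
CPM of each of the 37 members (horizontal axis, grouped by role) in each library on a logarithmic vertical axis, with red circles for the 2 JAML-positive and blue squares for the 2 JAML-negative libraries. Eci1 and Scd1 are near empty in both JAML-negative libraries, and most other members lie between 2.23 and 337 CPM with the groups interleaved.

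Of the enzymes placed in neither arm, Acot7, a thioesterase that splits long-chain acyl-CoA, had 73.9 and 91.8 CPM in JAML-positive libraries, against 55.4 and 46.9 CPM in JAML-negative libraries. The groups did not overlap (0.70, SE 0.36, edgeR adjusted p = 0.609). The synthetase Acsl5 was among the most abundant members, at 286 and 206 CPM in JAML-positive and 172 and 270 CPM in JAML-negative libraries, and the synthetase Acsl1 among the least, at 8.34 and 22.0 CPM in JAML-positive and 14.5 and 6.52 CPM in JAML-negative libraries. Both overlapped between groups.

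In fatty acid synthesis, the first step lay lower in JAML-positive cells. Acly, which cleaves exported citrate to acetyl-CoA, had 215 and 279 CPM in JAML-positive libraries, against 306 and 337 CPM in JAML-negative libraries. The groups did not overlap (-0.38, SE 0.23, edgeR adjusted p = 0.671, 95% interval 0.546 to 1.09-fold). Acaca, the acetyl-CoA carboxylase that makes malonyl-CoA and is the controlled step, had 53.6 and 73.5 CPM in JAML-positive and 65.2 and 36.4 CPM in JAML-negative libraries, overlapping. Fasn, the synthase that builds palmitate, had 97.9 and 108 CPM in JAML-positive and 106 and 112 CPM in JAML-negative libraries. Its log2 fold change was -0.08 (SE 0.29, adjusted p = 0.962 by edgeR, 95% interval 0.613 to 1.45-fold), and 0.34 once trends with transcript length and GC content were removed.

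The stearoyl-CoA desaturases put the first double bond into saturated acids. Scd2 carried nearly all of their counts, with 102 and 136 CPM in JAML-positive and 127 and 61.9 CPM in JAML-negative libraries, overlapping. Scd1 had 78 and 96 counts in JAML-positive libraries, against 2 and 4 counts in JAML-negative libraries. The ratio of summed counts was 28.0 with an exact 95% counting interval of 12.6 to 77.4, and edgeR gave an adjusted p of 0.626. Like Eci1, Scd1 passed the filter only through the JAML-positive libraries. Scd1 and Scd2 are neighbours on chromosome 19 and similar in sequence, so counts of the rarer gene are uncertain where reads match both.

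Fold changes of all 3 SREBP regulators were below 0, that of Srebf2 only until length and GC trends were removed or JAML-negative A was left out. Srebf2, the factor of the sterol genes, had 126 and 122 CPM in JAML-positive and 136 and 117 CPM in JAML-negative libraries, with a log2 fold change of -0.03 (SE 0.27, edgeR adjusted p = 0.989), which was 0.27 with length and GC trends removed. Srebf1, the factor of the fatty acid genes, had 24.0 and 61.6 CPM in JAML-positive and 46.1 and 81.4 CPM in JAML-negative libraries. The groups overlapped (-0.54, SE 0.48, adjusted p = 0.805 by edgeR), and the value ranged from -1.41 without JAML-positive B to -0.042 without JAML-positive A. Insig1, the sterol sensor that retains SREBP in the endoplasmic reticulum and is itself an SREBP target, had 60.4 and 94.3 CPM in JAML-positive libraries, against 102 and 114 CPM in JAML-negative libraries. These did not overlap (-0.47, SE 0.33, adjusted p = 0.731 by edgeR).

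The sterol pathway held members on both sides, 6 above 0 and 5 below, and no member passed. Hmgcs1, which makes the substrate of the mevalonate pathway, was almost level, with 84.5 and 91.1 CPM in JAML-positive and 93.5 and 90.3 CPM in JAML-negative libraries (-0.06, SE 0.30, edgeR adjusted p = 0.976, 95% interval 0.605 to 1.51-fold). Cyp51, the lanosterol demethylase, had 63.1 and 55.7 CPM in JAML-positive libraries, against 36.1 and 39.7 CPM in JAML-negative libraries. The groups did not overlap (0.65, SE 0.40, adjusted p = 0.687 by edgeR). Sqle, the epoxidase at the second controlled step, had 21.2 and 33.7 CPM in JAML-positive and 12.0 and 26.2 CPM in JAML-negative libraries, overlapping. Idi1, the isomerase of the isoprene units, had 2.41 and 12.98 CPM in JAML-positive and 17.9 and 11.2 CPM in JAML-negative libraries, and its fold change (-0.85, SE 0.92) ranged from -2.59 without JAML-positive B to -0.16 without JAML-positive A.

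The remaining 7 sterol genes lay on both sides. Lss, the lanosterol synthase, had 14.0 and 22.36 CPM in JAML-positive and 22.40 and 30.2 CPM in JAML-negative libraries, and Mvk, the mevalonate kinase, 6.57 and 8.80 CPM in JAML-positive and 9.86 and 9.79 CPM in JAML-negative libraries. Both lay lower in JAML-positive libraries without overlap, although for Lss the nearest libraries were almost equal. Fdps, the farnesyl diphosphate synthase, had 29.2 and 7.37 CPM in JAML-positive and 38.2 and 13.6 CPM in JAML-negative libraries, high in A and low in B of both groups. Dhcr7, the last reductase, had 45.5 and 10.7 CPM in JAML-positive and 34.4 and 17.7 CPM in JAML-negative libraries, with the same order of replicates. Fdft1, the squalene synthase, had 59.8 and 27.8 CPM in JAML-positive and 35.9 and 30.01 CPM in JAML-negative libraries, and 18.3% of its exonic bases overlap Ctsb on the opposite strand. Mvd, the decarboxylase, had 17.4 and 7.65 CPM in JAML-positive and 6.43 and 11.02 CPM in JAML-negative libraries, and Msmo1, the methyl sterol oxidase, 21.5 and 14.6 CPM in JAML-positive and 15.7 and 14.5 CPM in JAML-negative libraries.

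A pair of promoters is shown because both carry the core of the sterol regulatory element, the letters TCACCCCA, which SREBP factors bind. Searched on both strands of the 250 bases before the start, these letters occurred at Hmgcs1, Srebf2 and Acsl1 among 31 members with a promoter in the RefSeq table, and in 1.34% of all 32851 promoters. Again members were counted by gene, and the background by promoter over the whole RefSeq table. For both genes shown the groups overlapped. Capitals mark the letters, which begin 137 bases before the start of Hmgcs1 (chr13:119690101-119690350, plus strand) and 162 bases before that of Srebf2 (chr15:82147019-82147268, plus strand), in GRCm38.p6 from RefSeq. A match is a description of the sequence and no evidence of binding in these cells.
Hmgcs1: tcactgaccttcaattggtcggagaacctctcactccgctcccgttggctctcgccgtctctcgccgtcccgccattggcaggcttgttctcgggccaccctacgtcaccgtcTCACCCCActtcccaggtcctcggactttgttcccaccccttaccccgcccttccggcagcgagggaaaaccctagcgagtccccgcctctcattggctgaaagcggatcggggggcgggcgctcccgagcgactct
Srebf2: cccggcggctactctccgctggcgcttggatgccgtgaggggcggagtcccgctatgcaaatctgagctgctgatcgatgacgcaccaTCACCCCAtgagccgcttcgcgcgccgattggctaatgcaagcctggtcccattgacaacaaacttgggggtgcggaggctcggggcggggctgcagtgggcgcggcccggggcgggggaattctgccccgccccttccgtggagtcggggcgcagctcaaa

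The arms were then set against each other within each library. The oxidation genes summed to 1150 and 1059 CPM in JAML-positive libraries, against 944 and 1058 CPM in JAML-negative libraries. The synthesis genes summed to 1047 and 1171 CPM in JAML-positive libraries, against 1211 and 1154 CPM in JAML-negative libraries. The ratio of oxidation to synthesis was 1.099 and 0.905 in JAML-positive A and B, against 0.780 and 0.917 in JAML-negative A and B, so JAML-positive B lay below JAML-negative B. On the log2 scale, where each gene weighs the same, the mean of the oxidation genes minus that of the synthesis genes was 0.58 ± 0.33 in JAML-positive and 0.27 ± 0.23 in JAML-negative cells (SD, n = 2). The difference of 0.31 was smaller than the SD of the JAML-positive pair, and it was 0.06 without Eci1 and Scd1 (0.52 ± 0.36 in JAML-positive and 0.46 ± 0.27 in JAML-negative cells). Without Eci1 alone its direction turned, to -0.17. With all genes it was 0.07 without JAML-positive A and 0.54 without JAML-positive B. The balance of the arms therefore differed by less than the spread between replicates. The oxidation genes had shorter transcripts than the synthesis genes (median 2168 against 3931 nucleotides), and short transcripts had higher fold changes across all genes. These balances were not adjusted for transcript length.

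**Figure D3:**
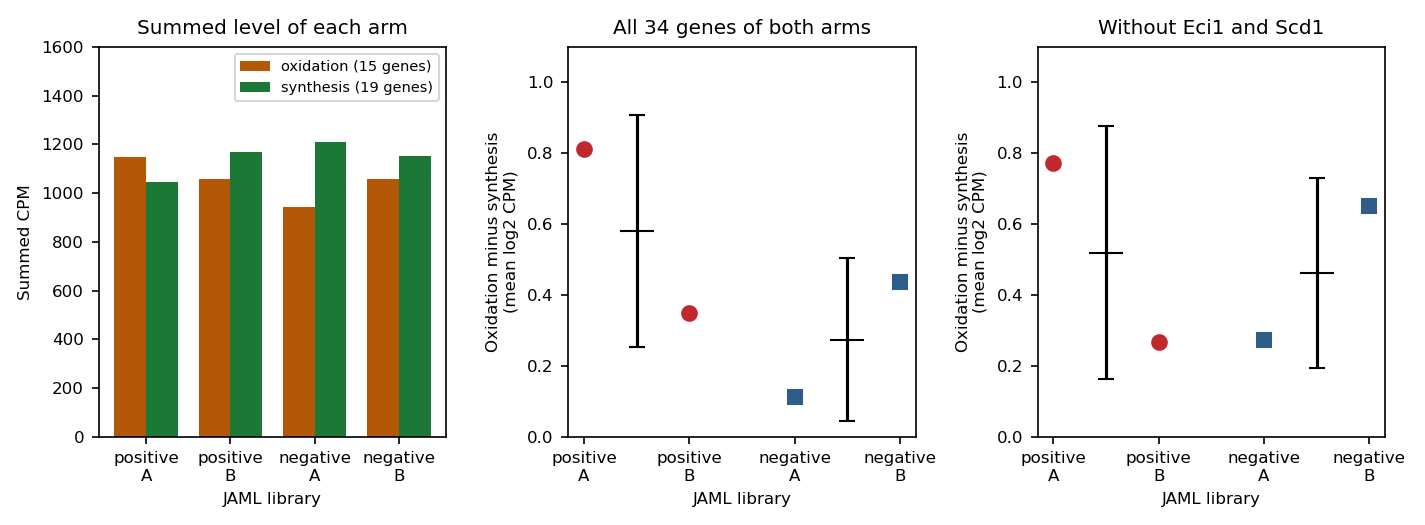
Left, summed CPM of the 15 oxidation and 19 synthesis genes in each library. Middle and right, mean log2 CPM of the oxidation genes minus that of the synthesis genes in each library, for all 34 genes and without Eci1 and Scd1, with bars for the mean and SD of each pair. The pairs overlap in both panels (0.81 and 0.35 in JAML-positive, 0.11 and 0.44 in JAML-negative libraries with all genes).

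The median difference in log2 CPM, JAML-positive minus JAML-negative, was -0.03 over the 15 oxidation genes, -0.07 over the 19 synthesis genes and -0.07 over the 11 sterol genes, beside 0.04 over all genes tested. Without JAML-positive B the medians were 0.37, 0.13 and 0.35, without JAML-positive A the oxidation median was -0.18, and without JAML-negative A the synthesis median was 0.06. The mean log2 CPM of the sterol genes was 4.37 ± 0.18 in JAML-positive and 4.45 ± 0.07 in JAML-negative cells (SD, n = 2), which overlap. The sum for the sterol genes was 365 and 293 CPM in JAML-positive and 322 and 294 CPM in JAML-negative libraries.

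Differences between groups were mostly within the spread between replicates. The difference of group means was larger than the gap between A and B in both groups for 9 of 37 members (24.3%), namely Hadha, Hadhb, Hadh, Eci1, Etfdh, Acot7, Acly, Scd1 and Cyp51, against 25.0% of all genes tested. Replicates lay at least 2-fold apart for 10 members in JAML-positive and 6 in JAML-negative cells. In JAML-positive cells 5 of those 10 were sterol genes and 3 were oxidation genes. Over all genes tested, 28.8% were that far apart in JAML-positive and 33.6% in JAML-negative cells. The median gap between A and B was 0.32 on the log2 scale for oxidation genes in JAML-positive and 0.23 in JAML-negative cells, and for sterol genes 0.67 in JAML-positive and 0.43 in JAML-negative cells. The median SE of a fold change was 0.37 in the oxidation arm and 0.68 among the sterol genes, so the data could show smaller differences in oxidation than in sterol synthesis.

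**Figure D4:**
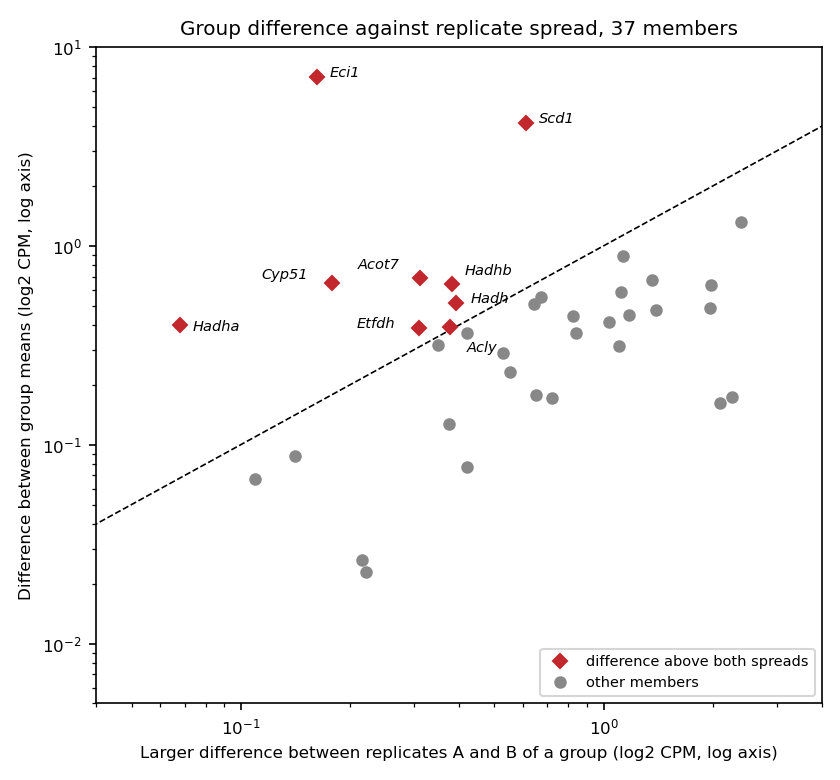
Difference between group means (vertical axis) against the larger of the gaps between replicates A and B (horizontal axis), both in log2 CPM on logarithmic axes, for the 37 members, with the dashed line where the values are equal. The 9 named members (red diamonds) lie above the line, Hadha with the smallest replicate gap and Eci1 with the largest group difference.

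Levels were compared between genes per kilobase of the longest annotated transcript. Etfb was the most abundant member, at 98.3 CPM per kilobase in JAML-positive and 84.7 in JAML-negative cells, followed over all libraries by Acly (55.8 in JAML-positive and 72.6 in JAML-negative cells) and Acadl (70.6 in JAML-positive and 54.0 in JAML-negative cells). Cpt1a stood at 35.4 in JAML-positive and 32.1 in JAML-negative cells, and Cpt2, the partner enzyme on the inner membrane, at 2.79 in JAML-positive and 2.65 in JAML-negative cells. Fasn stood at 10.2 in JAML-positive and 10.9 in JAML-negative cells, and Acaca at 6.68 in JAML-positive and 5.34 in JAML-negative cells. In the sterol pathway Hmgcs1 had the highest level (25.3 in JAML-positive and 26.5 in JAML-negative cells), and Mvk, Idi1 and Lss were among the lowest, between 2.54 and 3.23 in JAML-positive and 3.76 and 4.80 in JAML-negative cells. Scd1 was the lowest member in both groups, at 0.621 in JAML-positive and 0.022 in JAML-negative cells.

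Other genes of these pathways, 90 in 7 lists, were read in the same fit. Of these 83 were in the table and 73 were tested, and 0 passed. At an unadjusted p under 0.05 there were 8 of the 73, against 7.65% of all genes, 2 higher and 6 lower in JAML-positive cells. DESeq2 called 2 higher and 6 lower, with Acad10, Ppargc1b, Elovl6 and Slc27a4 among the lower. Tm7sf2, also called lower by DESeq2, was not among the 73. Its call rested on 1 library, with 0 and 0 counts in JAML-positive and 326 and 1 counts in JAML-negative A and B. The groups did not overlap for 34 of the 73 tested (46.6%), 17 in each direction, against 38.5% of all genes tested.

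Among 17 tested genes of fatty acid oxidation, 9 lay above 0 and 8 below. Ppargc1b, a coactivator of mitochondrial genes, had 6.19 and 8.84 CPM in JAML-positive libraries, against 34.1 and 30.7 CPM in JAML-negative libraries (-2.09, SE 0.68, edgeR adjusted p = 0.609). Acad10, an acyl-CoA dehydrogenase family member, had 2.94 and 2.998 CPM in JAML-positive libraries, against 22.5 and 24.6 CPM in JAML-negative libraries (-2.98, SE 0.90, adjusted p = 0.609 by edgeR). In both genes the JAML-positive libraries lay far below the JAML-negative ones with replicates close together, and neither passed. Of 8 peroxisomal genes 5 lay above 0 and 3 below.

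Among 18 tested genes of sterol synthesis and its control, 10 lay above 0 and 8 below. Npc1, which releases cholesterol from lysosomes, had 30.7 and 24.3 CPM in JAML-positive and 41.2 and 83.0 CPM in JAML-negative libraries (-1.18, SE 0.49, adjusted p = 0.609 by edgeR). Of 6 tested genes of the liver X receptor and cholesterol export 5 lay below 0, with the smallest p for Mylip, a ubiquitin ligase induced by the liver X receptor, at 51.5 and 69.7 CPM in JAML-positive and 77.7 and 115 CPM in JAML-negative libraries (-0.66, SE 0.35, adjusted p = 0.620 by edgeR).

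In fatty acid elongation and desaturation 5 of 10 tested genes lay above 0. Elovl6, the elongase of palmitate, had 12.2 and 24.4 CPM in JAML-positive libraries, against 47.6 and 64.5 CPM in JAML-negative libraries (-1.58, SE 0.51, edgeR adjusted p = 0.609). Of 7 tested genes of acyl-CoA synthesis and fatty acid uptake 4 lay above 0. Slc27a4, a fatty acid transport protein, had 7.85 and 3.06 CPM in JAML-positive libraries, against 19.4 and 27.8 CPM in JAML-negative libraries (-2.16, SE 0.84, adjusted p = 0.609 by edgeR). Of 7 tested genes of lipid droplets 4 lay above 0, with the smallest p for Plin2, the droplet coat protein, at 18.6 and 38.5 CPM in JAML-positive and 12.8 and 10.3 CPM in JAML-negative libraries (1.33, SE 0.68, adjusted p = 0.613 by edgeR).

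**Figure D5:**
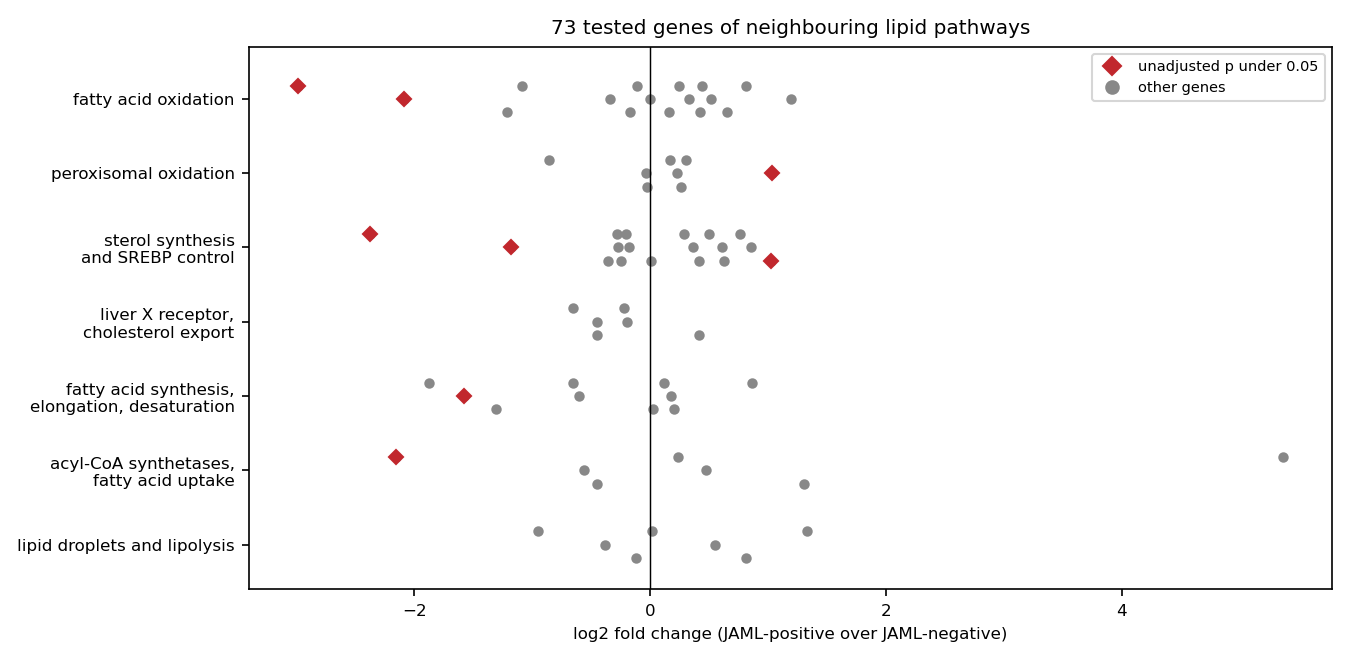
Log2 fold change (JAML-positive over JAML-negative, horizontal axis) of the 73 tested genes in 7 lists of neighbouring lipid pathways (vertical axis). Red diamonds mark the 8 genes with an unadjusted p under 0.05, 2 above and 6 below 0, none of which passed after adjustment.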

How the data were processed

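RNA was sequenced from 2 JAML-positive and 2 JAML-negative libraries of sorted CD8 T cells, made with a SMARTER mRNA-Seq kit per the labels' protocols. The authors deposited read counts per gene, whole numbers without normalization, with GRCm38 (mm10) named as the build in the submitters' processing notes. The sources used here do not name the aligner, counter, strand setting or annotation.

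Genes were filtered with filterByExpr (minimum count 10), scaled with TMM and tested with edgeR 4.0.16 in R 4.3.3 (quasi-likelihood, robust, bias-adjusted deviances, no covariate), with Benjamini-Hochberg adjusted p under 0.05 as the call. Each SE is |log2 fold change| over root F. Log2 CPM used a prior count of 2. DESeq2 1.42.0 and limma-voom (limma 3.58.1) were alternatives, as were other scalings, filters, the replicate block, length and GC trends, and each library left out. The fit was tested on simulated data. Lengths came from GENCODE, for 13795 genes and all 37 members, and positions from RefSeq (GRCm38.p6).

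Members and lists were chosen with earlier results of these data known. Values in full were given for members with an unadjusted p under 0.05, those with the largest fold change in each direction in each role, and fixed entry or regulatory steps; other members were added for completeness. Of the neighbouring lists, genes were named from those with an unadjusted p under 0.05 or the smallest p of a list. Eci2, Tm7sf2, Echs1, Hsd17b10, Acat1, Acaa1a and Decr1 were added afterwards. Some genes that this rule names are not reported here. The letters A and B were checked as pairs: the gap between A and B in one group against that in the other had r = 0.018 across 11563 genes, which are not independent replicates.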

Additional observations from a re-analysis of the deposited data

How the results depend on the processing

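Over 14 alternatives the members gave 517 fold changes, of which 480 kept their direction and stayed short of the threshold. With DESeq2, Eci1 passed, 1 member was called higher, 487 genes were higher and 348 lower in all, and 2 other lipid genes were higher and 6 lower. With no filter on low counts, and with a mean of at least 5 CPM, 2 genes were higher. With a library left out, 0 to 10 genes were called higher and 0 to 1 lower, the 10 and the 1 without JAML-positive B. With the replicate block 0 genes were higher and 0 lower, and the lowest adjusted p of a member was 0.854; the letters pair no samples by the labels. Over all genes the lowest adjusted p was 0.227 as reported and 0.704 with edgeR's earlier quasi-likelihood method, chosen after seeing the data.

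Direction changed for 17 members and 20 kept it throughout; the cause was not tested. With length and GC trends removed the log2 fold changes were -0.13 for Cpt2, -0.16 for Etfb, 0.34 for Fasn, 0.27 for Srebf2 and -0.0070 for Dhcr7, and with the replicate block added -0.13, -0.17, 0.35, 0.28 and -0.027 for the same genes. Cpt2 was at -0.0085 with RLE size factors, -0.022 with library totals and -0.31 with limma-voom, and Dhcr7 at -0.25 with limma-voom. With a library left out the values ran from -0.024 to 0.81 for Acaca, -1.48 to 0.49 for Acads, -0.28 to 0.13 for Acadvl, -0.34 to 1.25 for Acsl1, -0.14 to 0.53 for Acsl5, -0.065 to 0.32 for Cpt1a, -1.48 to 0.87 for Cpt2, -1.29 to 0.80 for Dhcr7, -0.13 to 0.084 for Etfa, -0.18 to 0.53 for Etfb, -0.24 to 0.85 for Fdft1, -1.82 to 0.37 for Fdps, -0.044 to 0.50 for Msmo1, -0.18 to 0.99 for Mvd, -0.080 to 0.95 for Scd2 and -0.13 to 0.084 for Srebf2.

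The sterol median was 0.082 among members of at least 10 CPM, and the synthesis median 0.17 with length and GC trends removed and 0.082 without the SREBP regulators. With a library left out the medians ran from -0.18 to 0.37 for oxidation, -0.10 to 0.13 for synthesis and -0.13 to 0.35 for sterol synthesis, and the balance of the arms from 0.07 to 0.54. The balance was -0.17 without Eci1, an alternative chosen after seeing the data. The 2 libraries per group limit precision, with a median SE of 0.41 over the members.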
